A study of Mus musculus with 55 samples.

Results

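Ly6c2, Ccr2, Itgal, Cd14, Fcgr1, Plac8, Ms4a4c, Ifitm6 and Chil3 are genes that inflammatory monocytes of the mouse express, and their RNA was measured in infarcted heart tissue of mice with and without diabetes. The 9 genes were chosen by symbol, with earlier results of these data known, and matched by Ensembl identifier. This gave 9 of 56941 genes counted at day 7 and 9 of 57186 counted at day 28. The shares of all genes called stand beside the counts for reference and are no test of the set. All 9 passed the filter on low counts at both days. At day 7 all 9 were called higher in type 1 than in non-diabetic tissue, where 11.1% of all genes tested were, and 6 were called higher in type 2 tissue, where 3.85% were. At day 28 Cd14 was the 1 gene called higher in type 1 tissue (2.6% of all genes tested), and 6 were called higher in type 2 tissue (7.21%).

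Inflammatory monocytes are made in bone marrow and spleen, carry much Ly6C on their surface, and leave the marrow by way of the chemokine receptor CCR2. After a coronary artery is blocked they enter the dying muscle within days, clear debris, release cytokines and turn into macrophages, and their numbers fall as the scar forms. None of the 9 genes is restricted to these cells: Itgal and Ly6c2 are also carried by lymphocytes, Chil3 and Ifitm6 by neutrophils, and Cd14 and Fcgr1 by macrophages.

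All tissue came from the infarcted left ventricle of C57BL/6J mice after permanent ligation of the coronary artery, so the non-diabetic groups carry an infarct too. Day 7 has 8 type 1 diabetic, 8 type 2 diabetic and 8 non-diabetic libraries, and day 28 has 10 type 1 diabetic, 10 type 2 diabetic and 11 non-diabetic libraries, by the sample titles and time labels. The library names carry hi STZ for type 1, lo STZ HFFD for type 2 and Ctrl for non-diabetic mice, and the labels do not spell these terms out. The series' design text names day 7 alone. The sources used here give neither age nor sex. Nothing in the labels says that replicates are separate animals, so each p-value measures the spread between libraries, which may be technical in part.

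Total counts per library, in M (mega), lay between 31.3 and 51.2 M in type 1, between 30.8 and 48.2 M in type 2 and between 10.8 and 46.8 M in non-diabetic tissue at day 7. The 10.8 M are those of non-diabetic replicate 4, and the next lowest of that group, replicate 6, had 34.2 M. At day 28 the totals lay between 57.4 and 89.6 M in type 1, between 48.1 and 92.9 M in type 2 and between 58.0 and 84.4 M in non-diabetic tissue. Of the markers of cardiomyocytes, macrophages, neutrophils, lymphocytes and endothelium, none was at 0 in every library of a day. Libraries were not of 1 kind within each group. Type 1 replicate 4 at day 7 had summed neutrophil, lymphocyte and adipocyte markers of 664, 185 and 579 CPM (counts scaled to a library of 1 M counts). Non-diabetic replicate 5 at day 7 had a neutrophil sum of 219 CPM, the highest of its group. Type 2 replicate 4 at day 28 had a lymphocyte sum of 485 CPM, and non-diabetic replicate 5 at day 28 had the lowest macrophage sum of that day, 1340 CPM. Fold changes that these 4 libraries move most are also given without them.

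At day 7, type 1 tissue was compared with non-diabetic tissue to see which monocyte genes differ with diabetes while the infarct heals. All 9 genes were higher in type 1 tissue, against 11.1% of the 18165 genes tested that were called higher in this comparison. A gene was called when its Benjamini-Hochberg adjusted p over all genes tested, from edgeR's quasi-likelihood test, was at or under 0.05. The log2 fold changes, type 1 over non-diabetic, ran from 0.54 for Cd14 to 2.56 for Chil3, with a median of 0.85 beside −0.011 over all genes tested. In the comparison of type 2 with non-diabetic tissue 6 of 9 genes were called higher, against 3.85% of all genes tested: Ly6c2, Ccr2, Itgal, Fcgr1, Plac8 and Ms4a4c. The median of the 9 was 0.78 beside −0.026 over all genes tested. Without the 4 libraries named above the counts were again 9 in type 1 and 6 in type 2 tissue. Both comparisons share the same non-diabetic libraries. The tissue is bulk, so more monocytes and more RNA per cell cannot be told apart in any of these results.

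Ly6c2 encodes the Ly6C2 surface antigen, by which inflammatory monocytes are sorted. The lowest, median and highest libraries had 4.71, 7.88 and 13.6 CPM in type 1 tissue, 6.84, 9.28 and 18.9 CPM in type 2 tissue, and 2.29, 2.81 and 4.06 CPM in non-diabetic tissue. Every diabetic library of either type lay above every non-diabetic one. How many of all genes tested separate in this way was not computed, here or for the genes below. The log2 fold change over non-diabetic tissue was 1.52 in type 1 tissue (SE 0.213, adjusted p = 0.000129, edgeR) and 1.90 in type 2 tissue (SE 0.215, adjusted p = 4.99e-06). Without type 1 replicate 4, which had the most Ly6c2 of its group, the type 1 value was 1.37. Ly6c1, the closest relative of Ly6c2 and a gene of endothelium, had log2 fold changes of 0.06 in type 1 and 0.11 in type 2 tissue and was not called. Reads of such close relatives can be assigned to the wrong gene, so the levels of Ly6c2 are uncertain.

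Ccr2 encodes the receptor for monocyte-attracting chemokines of the CCL2 family. It had 106, 123 and 156 CPM (lowest, median and highest library) in type 1 tissue, 85.9, 113 and 195 CPM in type 2 tissue, and 31.6, 80.6 and 99.7 CPM in non-diabetic tissue. All 8 type 1 libraries were above every non-diabetic library, and 6 of 8 type 2 libraries were. Ccr2 was higher by 0.78 on the log2 scale in type 1 tissue (SE 0.19, adjusted p = 0.00501, edgeR) and 0.70 in type 2 tissue (SE 0.19, adjusted p = 0.0248). The type 2 call was lost without type 2 replicate 1 (0.57, adjusted p = 0.0634, edgeR) and also without non-diabetic replicate 2. Itgal encodes the alpha L chain of LFA-1, the integrin with which leukocytes hold on to ICAM-1 of the vessel wall. Its lowest, median and highest levels were 9.80, 12.3 and 20.4 CPM in type 1 tissue, 12.9, 15.8 and 20.9 CPM in type 2 tissue, and 6.16, 9.29 and 10.3 CPM in non-diabetic tissue. The type 2 libraries were all above the non-diabetic ones, and 6 of 8 type 1 libraries were. Itgal rose by 0.60 on the log2 scale in type 1 tissue (SE 0.14, adjusted p = 0.00357, edgeR) and by 0.84 in type 2 tissue (SE 0.14, adjusted p = 0.00053).

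Cd14 encodes the co-receptor that passes bacterial lipopolysaccharide and other danger signals to Toll-like receptor 4. Its level was 37.7, 47.9 and 96.5 CPM in type 1 tissue, 38.8, 52.9 and 65.6 CPM in type 2 tissue, and 25.3, 35.6 and 52.4 CPM in non-diabetic tissue, again as lowest, median and highest. The groups overlapped: 3 of 8 type 1 and 4 of 8 type 2 libraries were above every non-diabetic library. The highest non-diabetic library, with 52.4 CPM, was replicate 4, which had the lowest total of its group, 10.8 M. A log2 fold change of 0.54 in type 1 tissue was called (SE 0.169, adjusted p = 0.0238, edgeR), and that of 0.51 in type 2 tissue was not (SE 0.169, adjusted p = 0.0631). The type 1 call was lost without type 1 replicate 7 (0.37, adjusted p = 0.0675, edgeR), the library with 96.5 CPM, and also without non-diabetic replicate 2. The type 2 value was called without any 1 of 5 libraries, which were non-diabetic replicates 4, 7 and 8, type 1 replicate 7 and type 2 replicate 2. Fcgr1 encodes the high-affinity receptor for IgG, which is known to be induced by interferon gamma. It had 73.5, 96.8 and 111 CPM in type 1 tissue, 74.4, 88.9 and 112 CPM in type 2 tissue, and 30.7, 56.0 and 65.2 CPM in non-diabetic tissue. No diabetic library overlapped the non-diabetic range. Fcgr1 was 0.85 higher on the log2 scale in type 1 tissue (SE 0.121, adjusted p = 0.000133, edgeR) and 0.78 higher in type 2 tissue (SE 0.121, adjusted p = 0.000272).

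Plac8 encodes a small cysteine-rich protein of myeloid and lymphoid cells. Its level was 34.5, 50.3 and 67.5 CPM in type 1 tissue, 58.2, 75.8 and 96.9 CPM in type 2 tissue, and 13.8, 37.0 and 45.7 CPM in non-diabetic tissue. Every type 2 library and 6 of 8 type 1 libraries lay above the non-diabetic range. Plac8 rose by 0.60 on the log2 scale in type 1 tissue (SE 0.173, adjusted p = 0.015, edgeR) and by 1.18 in type 2 tissue (SE 0.174, adjusted p = 0.000137). Ms4a4c encodes a membrane protein from a cluster of related genes. It had 15.7, 20.8 and 28.4 CPM in type 1 tissue, 18.5, 24.7 and 37.0 CPM in type 2 tissue, and 3.77, 8.24 and 12.2 CPM in non-diabetic tissue. As with Ly6c2, no diabetic library of either type overlapped a non-diabetic one. The increase was 1.48 on the log2 scale in type 1 tissue (SE 0.207, adjusted p = 0.000129, edgeR) and 1.80 in type 2 tissue (SE 0.208, adjusted p = 6.81e-06).

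Ifitm6 belongs to the interferon-induced transmembrane proteins and was among the lowest of the 9 genes. Its levels were 1.23, 2.37 and 10.5 CPM in type 1 tissue, 0.582, 1.22 and 2.79 CPM in type 2 tissue, and 0.549, 0.717 and 1.73 CPM in non-diabetic tissue, where the libraries held between 6 and 78 counts. Of the 8 libraries in each diabetic group, 6 of type 1 and 2 of type 2 were above every non-diabetic library. On the log2 scale Ifitm6 differed by 2.07 in type 1 tissue (SE 0.416, adjusted p = 0.00134, edgeR) and 0.71 in type 2 tissue (SE 0.415, adjusted p = 0.32). Chil3 encodes the secreted chitinase-like protein Ym1. Its libraries spread widely, with 15.3, 71.2 and 246 CPM in type 1 tissue, 7.32, 16.2 and 32.3 CPM in type 2 tissue, and 1.80, 8.71 and 60.1 CPM in non-diabetic tissue. In 5 of 8 type 1 libraries and in 0 of 8 type 2 libraries Chil3 was above every non-diabetic one. The type 1 tissue had a log2 fold change of 2.56 (SE 0.624, adjusted p = 0.00527, edgeR) and the type 2 tissue one of 0.33 (SE 0.6, adjusted p = 0.8).

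Single libraries moved the sizes of these last changes. Without type 1 replicate 4, the highest in Chil3 and Ifitm6, the type 1 values were 2.07 for Chil3 (adjusted p = 0.012, edgeR) and 1.62 for Ifitm6 (adjusted p = 0.00236). Without non-diabetic replicate 5, the library with 60.1 CPM, Chil3 was 3.54 higher in type 1 tissue and had a value of 1.31 in type 2 tissue (adjusted p = 0.137, edgeR). The 10 neutrophil markers summed to 78.8, 133 and 664 CPM in type 1 tissue, 68.4, 87.8 and 132 CPM in type 2 tissue, and 34.5, 68.1 and 219 CPM in non-diabetic tissue at day 7. In type 1 tissue 6 of 7 tested neutrophil markers were called higher, and in type 2 tissue 2 of 7. With the mean log2 level of the neutrophil list as a covariate, Chil3 and Ifitm6 stayed called in type 1 tissue at 1.52 (adjusted p = 0.00943, edgeR) and 0.89 (adjusted p = 0.0239), and Plac8 at 0.29 (adjusted p = 0.239), Itgal at 0.31 (adjusted p = 0.106) and Cd14 at 0.45 (adjusted p = 0.133) were no longer called.

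**Figure D1:**
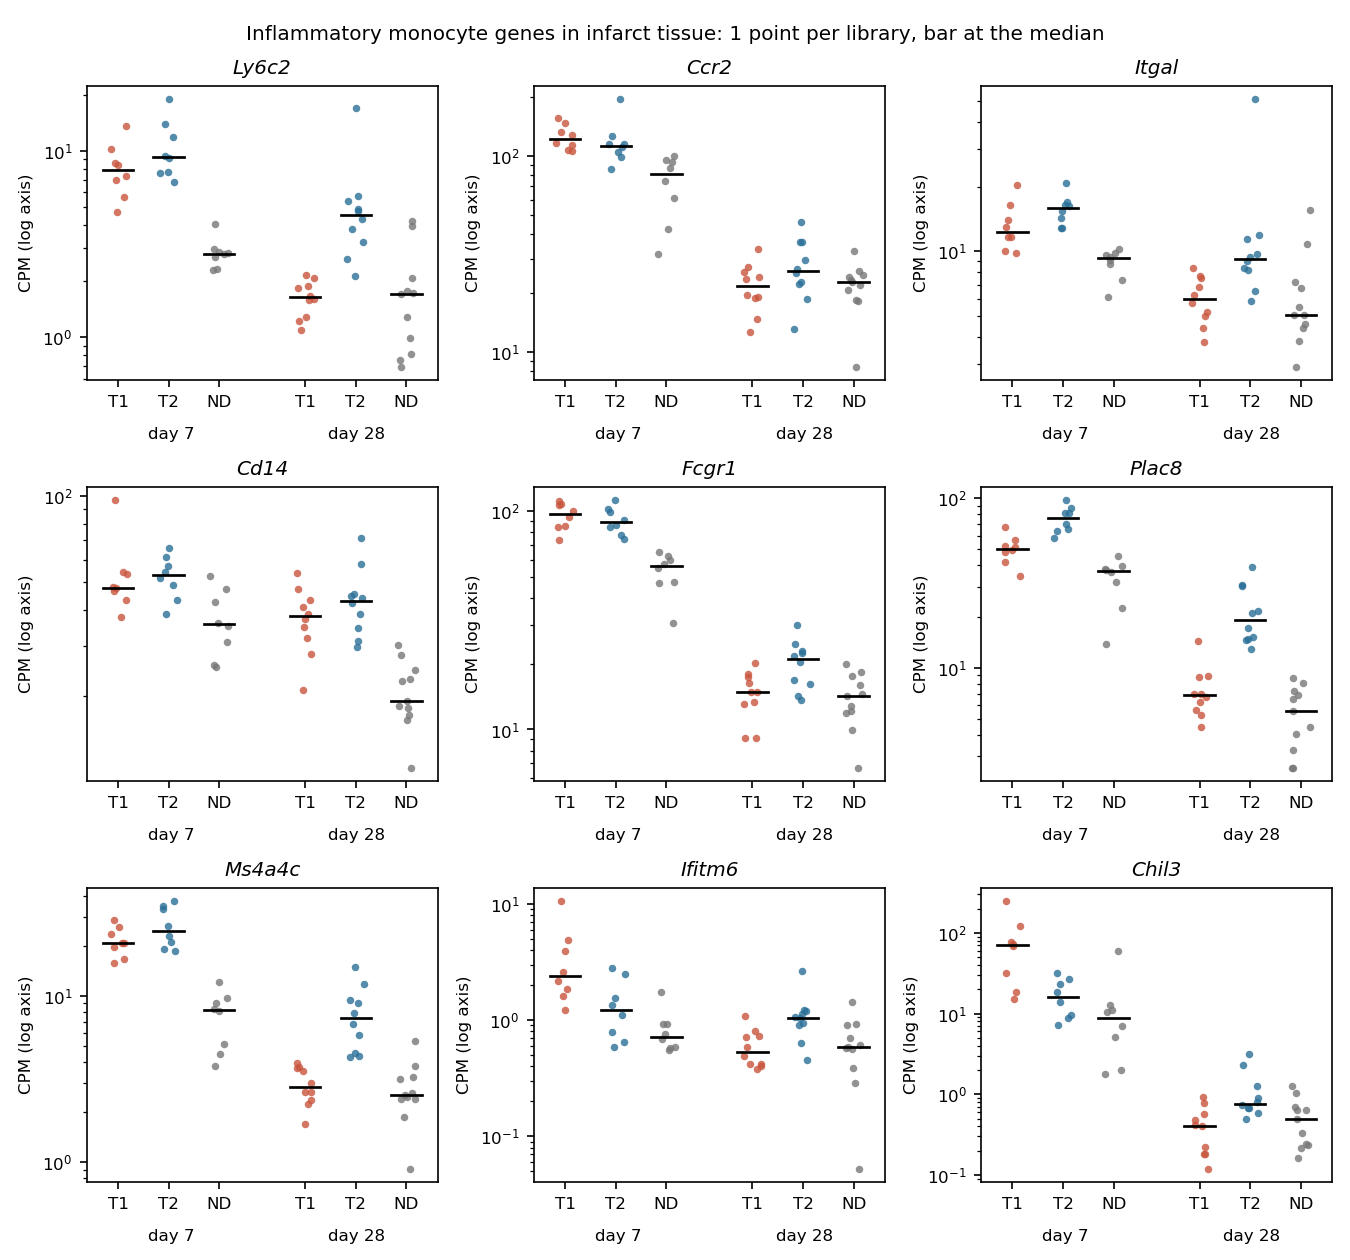
CPM of each of the 9 genes (log axis) in every library, with type 1 (T1), type 2 (T2) and non-diabetic (ND) groups at day 7 and then at day 28, 1 point per library and a bar at the group median. At day 7 the diabetic points of Ly6c2, Ms4a4c and Fcgr1 lie above all non-diabetic points, and at day 28 the type 2 points of Plac8 do. The share of all genes that separate in this way was not computed.

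**Figure D2:**
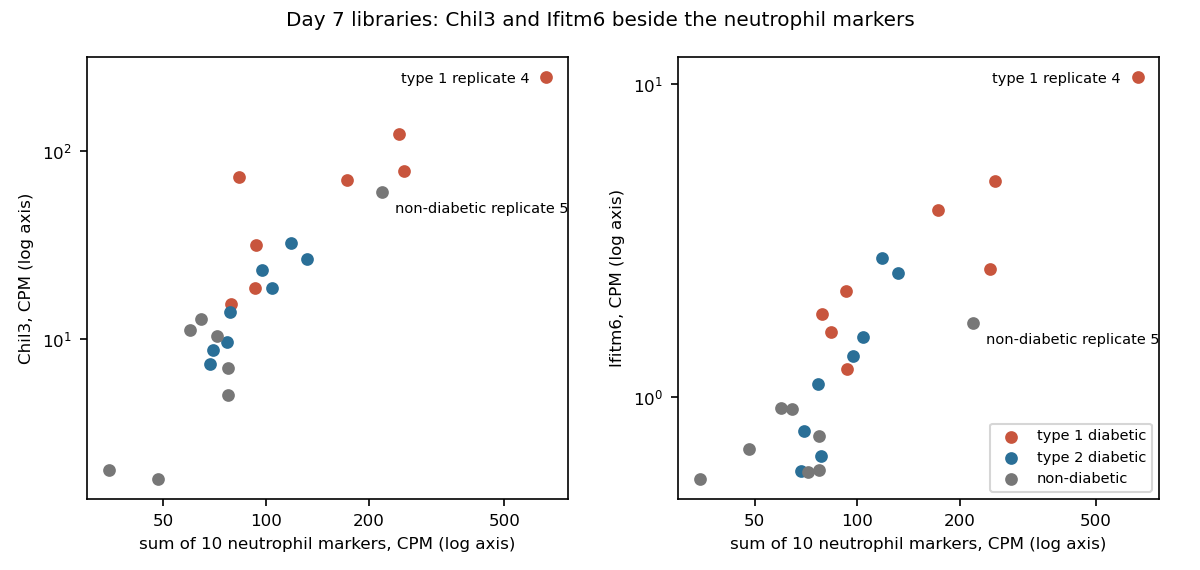
Chil3 and Ifitm6 (CPM, log axis) against the summed CPM of 10 neutrophil markers (log axis) in the day 7 libraries, coloured by group. Type 1 replicate 4, with a neutrophil sum of 664 CPM, has the most Ifitm6 and Chil3, and non-diabetic replicate 5 has the highest neutrophil sum of its group, 219 CPM.

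Between both diabetic types at day 7, 1 of 9 genes was called higher in type 1 tissue, against 1.51% of all genes tested, and none was called lower. Chil3 was 2.23 higher on the log2 scale in type 1 than in type 2 tissue (SE 0.613, adjusted p = 0.0484, edgeR), and 5 of 8 type 1 libraries were above every type 2 library. The call was lost when any 1 of 16 of the 24 libraries was left out, with a value of 1.74 without type 1 replicate 4 (adjusted p = 0.0944, edgeR). It was kept without non-diabetic replicates 2, 3, 4 or 5, type 1 replicates 1, 3 or 5, or type 2 replicate 3. With the neutrophil list as a covariate it was 1.10 (adjusted p = 0.131, edgeR). Plac8 had a value of −0.59 (SE 0.171, adjusted p = 0.0611, edgeR), and 7 of 8 type 1 libraries were below every type 2 library. DESeq2 called this difference (adjusted p = 0.0196), as did the fit without the 4 libraries that stand apart (−0.65, adjusted p = 0.0232, edgeR) and those without non-diabetic replicate 2 or 5 or type 1 replicate 3 or 4. Ifitm6 had a value of 1.36 (adjusted p = 0.0611, edgeR) and was called by DESeq2 (adjusted p = 0.0141) and without non-diabetic replicate 5, type 1 replicate 1, 2 or 3, or type 2 replicate 3. Without type 1 replicate 4 the Ifitm6 value was 0.91 (adjusted p = 0.144, edgeR), and without the 4 libraries that stand apart it was 0.92 (adjusted p = 0.0849). The other genes had values between −0.38 for Ly6c2 and 0.08 for Ccr2.

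Per kilobase of exon, which allows genes to be compared, the order of the median levels at day 7 differed between the groups. In type 1 tissue Chil3 stood first with 43.6 CPM per kb, before Fcgr1 with 37.4, Plac8 with 31.6 and Cd14 with 27.6 CPM per kb. In type 2 tissue Plac8 stood first with 47.6 CPM per kb, and Chil3 had 9.94. In non-diabetic tissue Plac8, Fcgr1 and Cd14 lay close together at 23.3, 21.6 and 20.6 CPM per kb, within the range of each gene's libraries, and Chil3 had 5.34. Ly6c2, Ifitm6 and Itgal were the 3 lowest in each group, with medians of at most 3.39 CPM per kb.

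The stretches upstream of the start sites are shown for 3 members with the clearest differences and for Chil3, which had the largest type 1 value at day 7. Whether these stretches have a part in the differences was not tested. The stretches are 200 bases each from the RefSeq promoter windows on GRCm38.p6, 5′ to 3′ on the gene's strand, for Ly6c2 at chr15:75111972-75112171 (minus strand), Ms4a4c at chr19:11407461-11407660 (plus strand), Fcgr1 at chr3:96293970-96294169 (minus strand) and Chil3 at chr3:106167565-106167764 (minus strand). Capitals mark 2 motifs, searched on both strands: the PU.1 core GAGGAA, of the factor that myeloid cells depend on, and the gamma-activated site TTCNNNGAA, to which STAT dimers bind.
Ly6c2: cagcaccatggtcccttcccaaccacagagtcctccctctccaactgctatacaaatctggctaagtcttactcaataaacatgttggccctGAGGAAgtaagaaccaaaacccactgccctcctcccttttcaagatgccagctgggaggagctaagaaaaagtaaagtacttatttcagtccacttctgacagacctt
Ms4a4c: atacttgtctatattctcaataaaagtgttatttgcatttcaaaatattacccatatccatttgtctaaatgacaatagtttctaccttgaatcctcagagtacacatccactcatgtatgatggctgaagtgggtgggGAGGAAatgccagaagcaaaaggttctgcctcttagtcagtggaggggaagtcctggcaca
Fcgr1: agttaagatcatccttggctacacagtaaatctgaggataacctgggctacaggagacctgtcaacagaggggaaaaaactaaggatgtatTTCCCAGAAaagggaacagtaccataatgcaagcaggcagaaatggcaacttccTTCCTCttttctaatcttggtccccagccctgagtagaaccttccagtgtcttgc
Chil3: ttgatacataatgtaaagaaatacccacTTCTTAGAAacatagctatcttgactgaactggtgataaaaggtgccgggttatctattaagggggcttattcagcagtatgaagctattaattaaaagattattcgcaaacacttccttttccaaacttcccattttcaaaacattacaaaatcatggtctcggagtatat
Of the 9 genes, 7 were matched to windows in the table; Cd14 and Itgal are named only. The PU.1 core lay in the windows of Ly6c2, Plac8, Ms4a4c and Fcgr1 and in 28.3% of all 32851 windows. The gamma-activated site lay in those of Fcgr1, Chil3 and Ifitm6, starting at −109, −172 and −10 from the start site, and in 8.3% of all windows. The interferon-stimulated response element, searched as 2 copies of GAAA with any pair of bases between, was in none of the members' windows and in 3.4% of all windows. The motifs were chosen after these letters had been seen, and a match says only that the letters are there.

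At day 28, type 1 tissue was again compared with non-diabetic tissue, and 1 of 9 genes was called higher, against 2.6% of the 18901 genes tested. That gene was Cd14, with 21, 38.1 and 53.8 CPM in type 1 tissue, 29.8, 43.2 and 71.2 CPM in type 2 tissue, and 11.3, 19.3 and 30.3 CPM in non-diabetic tissue. Of 10 libraries in each diabetic group, 8 of type 1 and 9 of type 2 were above every non-diabetic library. The log2 fold change was 0.86 in type 1 tissue (SE 0.161, adjusted p = 0.00235, edgeR) and 1.07 in type 2 tissue (SE 0.162, adjusted p = 3.92e-05). The type 1 value lay between 0.79 and 0.92 when each library was left out in turn, and every such fit called it. Library names start with a number whose meaning the labels leave unsaid, and with counts summed over libraries of 1 group with the same number it was 0.73 (adjusted p = 0.244, edgeR), with 4 sums for type 1 and 4 for non-diabetic tissue. Within each day no such number occurred in more than 1 group, so its meaning and the diabetic state cannot be told apart.  The other 8 genes had log2 fold changes between −0.33 for Chil3 and 0.45 for Plac8 in type 1 tissue, and the median of the 9 was 0.

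In type 2 tissue at day 28, 6 of 9 genes were called higher than in non-diabetic tissue, against 7.21% of all genes tested: Ly6c2, Plac8, Ms4a4c, Itgal, Cd14 and Fcgr1. The median log2 fold change of the 9 was 1.07, beside −0.003 over all genes tested. Plac8 had the largest, 1.99 (SE 0.239, adjusted p = 1.17e-06, edgeR). Its lowest, median and highest levels were 4.45, 6.84 and 14.4 CPM in type 1 tissue, 12.8, 19 and 39.1 CPM in type 2 tissue, and 2.57, 5.54 and 8.65 CPM in non-diabetic tissue. Plac8 was the 1 gene whose type 2 and non-diabetic libraries did not overlap. How many of all genes tested lack overlap between groups was not computed at either day. Ly6c2 had 1.09, 1.63 and 2.15 CPM in type 1 tissue, 2.14, 4.53 and 16.9 CPM in type 2 tissue, and 0.696, 1.70 and 4.20 CPM in non-diabetic tissue. In 6 of 10 type 2 libraries Ly6c2 was above every non-diabetic one, and the log2 fold change was 1.57 (SE 0.322, adjusted p = 0.0016, edgeR). Without type 2 replicate 4, the library with 16.9 CPM, it was 1.17 (adjusted p = 0.00515, edgeR). Ms4a4c had 1.69, 2.83 and 3.93 CPM in type 1 tissue, 4.29, 7.34 and 15.0 CPM in type 2 tissue, and 0.916, 2.52 and 5.35 CPM in non-diabetic tissue. It was above the non-diabetic range in 7 of 10 type 2 libraries, with a log2 fold change of 1.5 (SE 0.233, adjusted p = 6.13e-05, edgeR).

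Itgal and Fcgr1 were called by a smaller margin. Itgal had 3.79, 6.01 and 8.35 CPM in type 1 tissue, 5.89, 9.20 and 51.0 CPM in type 2 tissue, and 2.91, 5.08 and 15.6 CPM in non-diabetic tissue. A single type 2 library, replicate 4 with 51.0 CPM, lay above the non-diabetic range. The log2 fold change of 1.01 (SE 0.316, adjusted p = 0.0355, edgeR) was 0.45 without it (adjusted p = 0.223), and the call was lost without any 1 of 8 of the 31 libraries, the others being non-diabetic replicates 1, 2, 4, 5, 7, 9 and 10. That library also had the highest lymphocyte sum of the day, 485 CPM. With the lymphocyte list as a covariate the Itgal value was 0.15 (adjusted p = 0.413, edgeR), and the part of lymphocytes in it was not tested. Without the 4 libraries that stand apart, 4 of the 6 genes stayed called and Itgal stood at 0.38 (adjusted p = 0.328, edgeR). Fcgr1 had 9.11, 14.9 and 20.1 CPM in type 1 tissue, 13.6, 21 and 30.0 CPM in type 2 tissue, and 6.69, 14.2 and 20 CPM in non-diabetic tissue. Its type 2 and non-diabetic libraries overlapped, with 6 of 10 type 2 libraries above every non-diabetic one. The log2 fold change was 0.53 (SE 0.163, adjusted p = 0.0322, edgeR) and the call was lost without any 1 of 9 libraries, non-diabetic replicates 2, 5, 9 and 11 and type 2 replicates 1, 4, 6, 7 and 10. The smallest value was 0.45 without non-diabetic replicate 5 (adjusted p = 0.0529, edgeR). Without the 4 libraries that stand apart Fcgr1 stood at 0.42 (adjusted p = 0.0926, edgeR).

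The receptor Ccr2 was not called at day 28 in either diabetic group. It had 12.7, 21.6 and 33.5 CPM in type 1 tissue, 13.1, 25.9 and 46.2 CPM in type 2 tissue, and 8.42, 22.8 and 32.7 CPM in non-diabetic tissue. Of 10 libraries in each diabetic group, 1 of type 1 and 3 of type 2 were above every non-diabetic one. Its log2 fold change was 0 in type 1 tissue and 0.34 in type 2 tissue (SE 0.192, adjusted p = 0.276, edgeR). Ifitm6 held at most 200 counts and Chil3 at most 232 counts in a library. Ifitm6 had 0.376, 0.536 and 1.08 CPM in type 1 tissue, 0.455, 1.05 and 2.64 CPM in type 2 tissue, and 0.0528, 0.591 and 1.42 CPM in non-diabetic tissue, where the libraries held between 3 and 106 counts. Chil3 had 0.120, 0.409 and 0.924 CPM in type 1 tissue, 0.498, 0.767 and 3.18 CPM in type 2 tissue, and 0.160, 0.49 and 1.27 CPM in non-diabetic tissue. Their type 2 values were 0.81 for Ifitm6 (SE 0.315, adjusted p = 0.0955, edgeR) and 1.10 for Chil3 (SE 0.393, adjusted p = 0.0675), neither called. Ifitm6 was called without non-diabetic replicate 11, and Chil3 without non-diabetic replicate 3 or 9. Per kilobase Cd14 was the highest of the 9 at day 28 in every group, with medians of 22 CPM per kb in type 1, 24.9 in type 2 and 11.1 in non-diabetic tissue, and Chil3 was the lowest in every group.

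**Figure D3:**
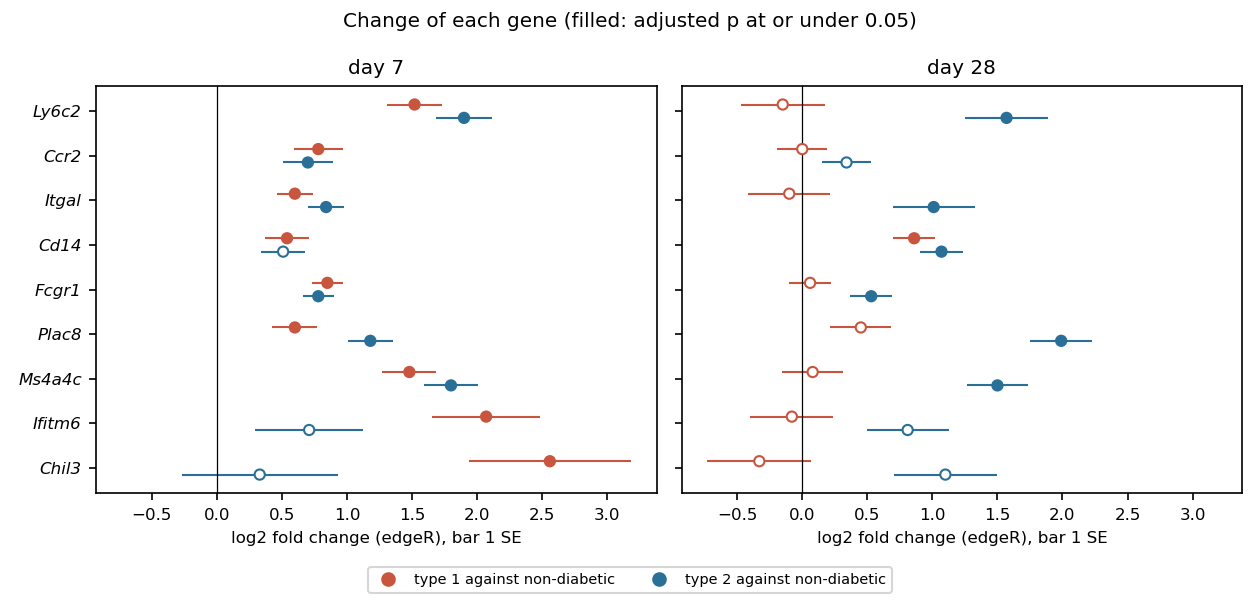
Log2 fold change of each gene with a bar of 1 SE (edgeR), at day 7 and day 28, for type 1 against non-diabetic and type 2 against non-diabetic tissue, with filled points for adjusted p at or under 0.05. All 9 genes are filled for type 1 at day 7 and Cd14 alone at day 28, while type 2 has 6 filled at each day.

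Set directly against each other at day 28, type 1 tissue was lower than type 2 tissue in 4 of 9 genes, against 2.03% of all genes tested, and higher in none. The log2 fold change was −1.72 for Ly6c2 (SE 0.334, adjusted p = 0.00201, edgeR), −1.54 for Plac8 (SE 0.243, adjusted p = 0.000175), −1.42 for Ms4a4c (SE 0.24, adjusted p = 0.000473) and −1.43 for Chil3 (SE 0.409, adjusted p = 0.0469). All 10 type 1 libraries were below every type 2 library in Ms4a4c, and 9 of 10 were in Ly6c2 and in Plac8. In Chil3, 7 of 10 were, and that call was lost without any 1 of 15 of the 31 libraries and without the 4 libraries that stand apart (−1.26, adjusted p = 0.105, edgeR). The 15 are non-diabetic replicates 1, 2 and 10, type 1 replicates 1, 2, 3, 4, 7, 8, 9 and 10, and type 2 replicates 1, 4, 6 and 7. Itgal had a value of −1.11 (adjusted p = 0.0526, edgeR) and was called by DESeq2 (adjusted p = 0.0218) and without non-diabetic replicate 4, 5 or 8, type 1 replicate 10, or type 2 replicate 2, 3, 5, 6 or 8. Without type 2 replicate 4 the Itgal value was −0.56 (adjusted p = 0.218, edgeR). The remaining values were −0.90 for Ifitm6, −0.47 for Fcgr1, −0.34 for Ccr2 and −0.22 for Cd14.

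Whether a diabetic effect differed between the days was tested as the effect at day 28 minus that at day 7, in a fit of all 6 groups. Day and sequencing project cannot be told apart, by the library names, and the difference of effects sets each diabetic group against the controls of its own project. In type 1 tissue 5 of 9 genes had a lower effect at day 28, against 5.5% of the 20421 genes tested. These were Ly6c2 at −1.67 (SE 0.421, adjusted p = 0.0053, edgeR), Ifitm6 at −2.16 (SE 0.521, adjusted p = 0.0036), Chil3 at −2.88 (SE 0.742, adjusted p = 0.00645), Ms4a4c at −1.42 (SE 0.328, adjusted p = 0.00238) and Fcgr1 at −0.80 (SE 0.215, adjusted p = 0.00967). Leaving out single libraries of day 7 moved Chil3 to −2.42 without type 1 replicate 4 (adjusted p = 0.0171, edgeR) and to −3.83 without non-diabetic replicate 5 (adjusted p = 0.000103). Without the 4 libraries that stand apart 6 of 9 were called, Ccr2 at −0.80 among them (adjusted p = 0.0175, edgeR), with Chil3 at −3.38 and Ifitm6 at −2.09. Markers of other cells moved in the same test: 6 of 9 neutrophil markers were lower, with a median of −2.2 on the log2 scale, and 6 of 7 markers of tissue-resident macrophages were lower, with a median of −1.94. With the neutrophil list as a covariate Ifitm6 was −0.93 and no longer called (adjusted p = 0.151, edgeR), and Chil3 was −1.86 (adjusted p = 0.019). The part of the tissue-resident macrophages in the result was not tested. Ccr2 at −0.80 narrowly missed the threshold (adjusted p = 0.0524, edgeR) and was called by DESeq2 (adjusted p = 0.0278) and without any 1 of 13 of the 55 libraries. Plac8 had −0.16 and Cd14 0.31. For type 2 tissue none of the 9 was called, against 1.51% of genes called either way by edgeR. There, 2 had an unadjusted p under 0.05, Plac8 with 0.78 (p = 0.0139, edgeR) and Cd14 with 0.54 (p = 0.0297), and DESeq2 and limma-voom also called 0. The other type 2 values lay between −0.39 for Ccr2 and 0.73 for Chil3. Whether the change of effect differed between the types was not tested.

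The genes around the members were counted from lists of the same pathway. For these lists and the marker lists below, the shares of all genes tested called higher are the reference. They were 11.1% in type 1 and 3.85% in type 2 tissue at day 7, and 2.6% and 7.21% at day 28. The shares called lower are not given for these comparisons. Of 12 further inflammatory monocyte genes, 9 were higher and 1 lower in type 1 tissue at day 7, and 2 were higher in type 2 tissue. The lower gene was Fn1, at −0.52 (SE 0.142, adjusted p = 0.0103, edgeR). Which cells of the tissue the RNA of these 12 genes came from was not tested. The higher genes included F13a1, the A chain of coagulation factor XIII, at 1.59 in type 1 tissue (SE 0.282, adjusted p = 0.000503, edgeR), and Itgam, the alpha M integrin chain, at 0.99 in type 1 (SE 0.184, adjusted p = 0.000732) and 0.70 in type 2 tissue (SE 0.183, adjusted p = 0.0207). F13a1 was also 1.66 higher in type 1 than in type 2 tissue at day 7 (adjusted p = 0.00382, edgeR). At day 28, 1 of the 12 was higher in type 1 and 3 in type 2 tissue, among them Thbs1 and Clec4e. Of these 12, 3 had a lower type 1 effect at day 28 than at day 7, F13a1 at −2.21, Itgam at −1.07 and Gda at −1.22, and 2 had a higher one, Thbs1 at 0.89 and Fn1 at 0.94 (edgeR). Of 10 genes of patrolling monocytes, 0 were called in type 1 tissue at day 7, while 4 were higher and 1 lower in type 2 tissue, and at day 28 there were 1 higher in type 1 and 5 higher in type 2 tissue. Nr4a1, the nuclear receptor that patrolling monocytes require, was 1.51 higher in type 1 (SE 0.285, adjusted p = 0.00235, edgeR) and 1.24 higher in type 2 tissue at day 28 (SE 0.284, adjusted p = 0.00429). In type 1 tissue at day 28 no other gene of this list was called, and the median of the 10 was 0.14. Cx3cr1 stood at −0.63 there (adjusted p = 0.158, edgeR).

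Of the 4 ligands of CCR2, all were higher in type 1 tissue at day 7 and 3 in type 2 tissue. Ccl8 was 1.68 higher in type 1 (SE 0.181, adjusted p = 2.33e-05, edgeR) and 0.86 higher in type 2 tissue (SE 0.178, adjusted p = 0.00432). Ccl7 was 1.97 higher in type 1 and 1.3 higher in type 2 tissue, and Ccl12 was 1.09 higher in type 1 and 0.67 higher in type 2 tissue. Ccl2 was 1.73 higher in type 1 tissue. At day 28 none of the 4 was called in type 1 tissue, and Ccl8 alone was called in type 2 tissue at 1.10 (SE 0.287, adjusted p = 0.0119, edgeR). The type 1 effect was lower at day 28 than at day 7 for all 4, from −2.40 for Ccl7 to −1.55 for Ccl12. The type 2 effect was lower for Ccl7 at −1.45 (adjusted p = 0.0338, edgeR). Itgal pairs with Itgb2, the beta chain of LFA-1, which binds Icam1 and Icam2 on the vessel wall, and Vcam1, the ligand of another leukocyte integrin, was counted with these 3. Itgb2 rose by 0.43 on the log2 scale in type 1 tissue at day 7 (SE 0.107, adjusted p = 0.00635, edgeR) and by 0.43 in type 2 tissue (adjusted p = 0.016). Itgb2, Vcam1 and Icam1 were higher in type 2 tissue at day 28, at 0.64, 0.85 and 0.41, and 0 of these 4 were called in type 1 tissue at that day.

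Of 8 genes of the CD14 and lipopolysaccharide receptor pathway, 4 were higher in type 1 and 3 in type 2 tissue at day 7, by small amounts: Tlr4, the receptor itself, by 0.37 in type 1 (adjusted p = 0.0175, edgeR) and 0.42 in type 2 tissue (adjusted p = 0.0238), and Myd88, its adaptor, by 0.29 in type 1 and 0.25 in type 2 tissue. None of the 8 was called at day 28, when Cd14 was higher in both. All 4 further Fc receptor genes were higher in type 1 tissue at day 7 and 2 in type 2 tissue, and at day 28 there were 1 in type 1 and 3 in type 2 tissue. Fcgr4, a further activating receptor for IgG, was called in all 4 of these comparisons, at 0.66 and 0.79 in type 1 tissue at days 7 and 28 and at 1.07 and 1.45 in type 2 tissue. Among 6 relatives of Ms4a4c, 5 were higher in type 1 and 4 in type 2 tissue at day 7, and 0 in type 1 and 5 in type 2 tissue at day 28. Ms4a6b, for example, was 1.09 higher in type 1 and 0.78 higher in type 2 tissue at day 7, and 0.99 higher in type 2 tissue at day 28. Of the 5 tested relatives of Ly6c2, 2 were higher in type 1 and 3 in type 2 tissue at day 7, and 0 in type 1 and 3 in type 2 tissue at day 28. Of these, Ly6e was 0.25 higher in type 1 and 0.63 higher in type 2 tissue at day 7, and 0.86 higher in type 2 tissue at day 28. Of 5 relatives of Ifitm6, 2 were higher and 1 lower in type 1 tissue at day 7, 1 was higher and 1 lower in type 2 tissue at day 7, and 0 were called in type 1 and 1 was higher in type 2 tissue at day 28. Ifitm3, which blocks entry of viruses into cells, stood at 0.33 in type 1 and 0.45 in type 2 tissue at day 7 and 0.59 in type 2 tissue at day 28. Chil4, the closest relative of Chil3, had at most 0.114 CPM in any library and was not tested, and Chil1, the 1 relative tested, was not called. Of 8 tested growth factors, receptors and transcription factors of monocytes, 5 were higher in type 1 and 1 in type 2 tissue at day 7, and 1 in each at day 28. Spi1, which encodes PU.1, was 0.36 higher in type 1 tissue at day 7 (adjusted p = 0.0394, edgeR).

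Other gene groups of the tissue moved with the same comparisons. The 14 interferon-stimulated genes summed to 509, 656 and 810 CPM (lowest, median and highest) in type 1 tissue, 830, 946 and 1200 CPM in type 2 tissue, and 413, 509 and 622 CPM in non-diabetic tissue at day 7. At day 28 the sums were 344, 418 and 532 CPM in type 1 tissue, 489, 672 and 1140 CPM in type 2 tissue, and 268, 344 and 431 CPM in non-diabetic tissue. Type 2 and non-diabetic libraries did not overlap in this sum at either day. Of the 14, 7 were higher in type 1 and 13 in type 2 tissue at day 7, and 3 in type 1 and 14 in type 2 tissue at day 28. Irf7, a regulator of interferon genes, was 0.69 higher in type 1 and 1.39 higher in type 2 tissue at day 7, and 0.76 higher in type 1 and 1.99 higher in type 2 tissue at day 28. With the mean log2 level of this list as a covariate, 6 of 9 members stayed called in type 1 tissue at day 7, and none of the 6 in type 2 tissue did at either day. With no overlap between type 2 and non-diabetic libraries, the list and the group cannot be told apart in that fit.

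The 10 macrophage markers summed to 7130, 8830 and 9860 CPM in type 1 tissue, 7770, 8580 and 9990 CPM in type 2 tissue, and 4960, 6940 and 8160 CPM in non-diabetic tissue at day 7, and 6 were higher in type 1 and 4 in type 2 tissue. With this list as a covariate 3 members stayed called in type 1 tissue at day 7, Ly6c2, Ms4a4c and Fcgr1, and 2 in type 2 tissue, Ly6c2 at 1.86 and Ms4a4c at 1.65. The list itself differed by group, with a mean log2 CPM of 8.71 in type 1, 8.74 in type 2 and 8.37 in non-diabetic tissue. The list and the group can therefore be told apart only in part in that fit. At day 28 the macrophage sums were 1770, 2260 and 2690 CPM in type 1 tissue, 1940, 2600 and 3300 CPM in type 2 tissue, and 1340, 2090 and 2670 CPM in non-diabetic tissue. The fit with the macrophage list then called Plac8, Ms4a4c and Cd14 in type 2 tissue. The 13 lymphocyte markers summed to 19.8, 30.2 and 185 CPM in type 1 tissue, 38.5, 45.7 and 56.1 CPM in type 2 tissue, and 25, 27.3 and 53.8 CPM in non-diabetic tissue at day 7. At day 28 the lymphocyte sums were 15.8, 25.3 and 76.9 CPM in type 1 tissue, 21, 40 and 485 CPM in type 2 tissue, and 9.53, 26.2 and 83.0 CPM in non-diabetic tissue. Of these 13 markers 8 were higher in type 2 tissue at each day, and 2 in type 1 tissue at day 7. With this list as a covariate 6 calls were lost over all comparisons and 0 gained, that of Itgal in type 2 tissue at day 28 among them. The list's mean log2 CPM was 1.63 in type 2 and 0.76 in non-diabetic tissue at day 7, and 1.38 and 0.56 at day 28. The lymphocyte list and the type 2 group can therefore be told apart only in part in that fit. The 7 markers of tissue-resident macrophages summed to 306, 589 and 736 CPM in type 1 tissue, 169, 253 and 341 CPM in type 2 tissue, and 145, 218 and 443 CPM in non-diabetic tissue at day 7. Of these 7, 5 were higher in type 1 tissue, among them Pf4 at 1.48 and Cd163 at 1.67, and 1 in type 2 tissue. The 12 cardiomyocyte markers summed to 2390, 13600 and 20600 CPM in type 1 tissue, 6190, 18000 and 23400 CPM in type 2 tissue, and 8660, 17700 and 31800 CPM in non-diabetic tissue at day 7. Their median log2 fold change in type 1 tissue was −0.91, and 1 of the 12, Mb, which encodes myoglobin, was lower (−1.5, SE 0.502, adjusted p = 0.0324, edgeR). The part of tissue-resident macrophages in the members' values was not tested.

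**Figure D4:**
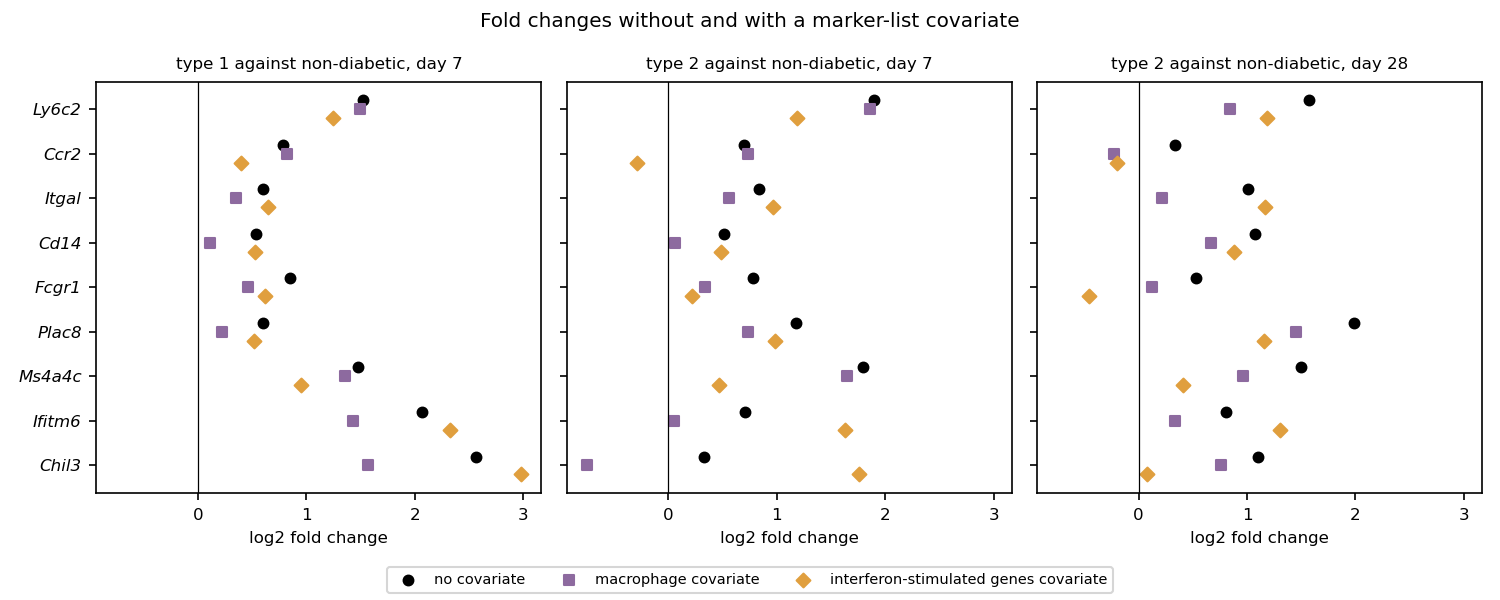
Log2 fold change of each gene without a covariate and with the macrophage or the interferon-stimulated list as a covariate, in panels for type 1 tissue at day 7 and for type 2 tissue at day 7 and day 28, each against non-diabetic tissue. With the interferon-stimulated list Fcgr1 in type 2 tissue at day 28 stands at −0.46, beside 0.53 without it.

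Across libraries 32 of 36 pairs of members at day 7 and 34 at day 28 had a correlation above 0. Pairs of other genes were not correlated for reference. Each gene's log2 CPM less its group mean was correlated with each other gene's, over 24 libraries at day 7 and 31 at day 28, which share their library and its make-up. Over the 36 pairs the median Pearson r was 0.33 at day 7, from −0.25 to 0.77, and 0.56 at day 28, from −0.06 to 0.85, and the median Spearman rho was 0.36 at day 7 and 0.45 at day 28. Without the 4 libraries that stand apart the median Pearson r was 0.43 at day 7, from 0.11 to 0.69. At day 28 it was then 0.36, from −0.37 to 0.76. The order of the days thus turned round, and the difference between the days was not tested. The values that follow use all libraries. Chil3 followed the others least at day 28, with an r of 0.15 with their mean, where Ms4a4c had 0.83. At day 7 Ccr2 had the lowest value, 0.30, and Fcgr1 the highest, 0.67. Among 12284 other genes, those most like the mean of the members on both days were Lyn, Slfn1, Ncf4, Hcls1, AI662270 and Cd53, with the lower of the 2 days' r between 0.77 and 0.83. Lyn, a Src family kinase of leukocytes, had 0.85 at day 7 and 0.83 at day 28. In type 1 tissue at day 7 all 6 were higher, from 0.38 for Lyn (SE 0.0852, adjusted p = 0.00287, edgeR) to 1.56 for Slfn1 (SE 0.208, adjusted p = 0.000129). In type 1 tissue at day 28 none of the 6 was called, while 4 were higher in type 2 tissue, with Slfn1 at 1.67 (SE 0.209, adjusted p = 2.43e-06, edgeR).

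**Figure D5:**
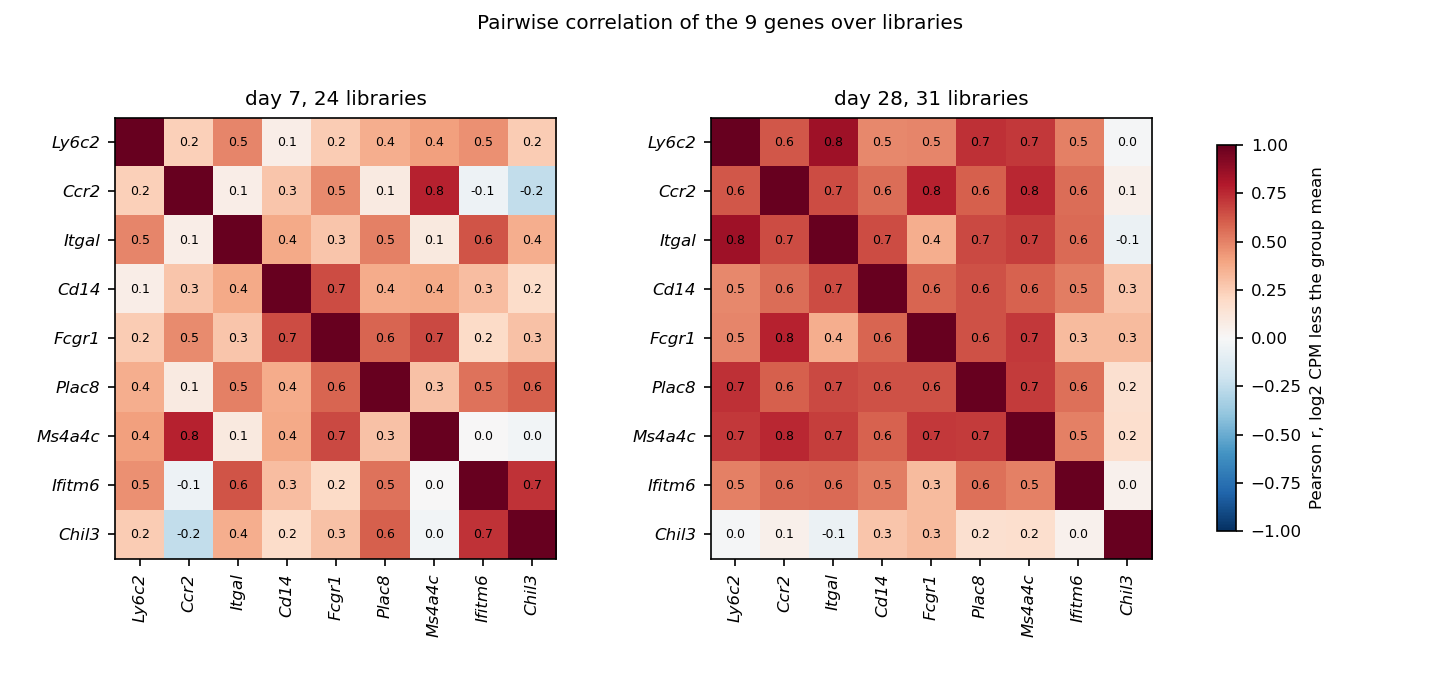
Pearson r between the group-centred log2 CPM of each pair of the 9 genes, over 24 libraries at day 7 and 31 libraries at day 28. The median over the 36 pairs is 0.33 at day 7 and 0.56 at day 28, and the values of Chil3 at day 28 lie between −0.06 and 0.32.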

How the data were processed

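RNA-seq libraries were made with a kit that keeps strand after poly(A) selection, per the labels' protocols. The authors deposited raw counts per Ensembl gene, 1 table for each day. The submitters' processing notes name the build mm39 and the tool DESeq2. The sources used here do not give the aligner, counting tool, annotation or strand setting, so reads of overlapping antisense genes and of close relatives (Ly6, Ms4a4, Ifitm and Chil3 families) may be split. Of deposited counts from 1 to 49, 76.4% at day 7 and 75.2% at day 28 were even, so that mates of read pairs may have been counted separately and counting error is larger than the totals imply.

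The counts were used as deposited. Symbols came by Ensembl identifier from GENCODE M21 (GRCm38), which paired 51948 identifiers at day 7 and 51880 at day 28, and exon lengths came from the same annotation. Promoter windows are RefSeq's on GRCm38.p6. No library repeated another within sampling noise, since the chi-square per gene between libraries of a group was at least 17.6 at day 7 and 25 at day 28. Tests ran in R 4.3.3 with edgeR 4.0.16: TMM scaling, filterByExpr (minimum count 10, total 15), glmQLFit and glmQLFTest, the 3 groups of a day fitted together, and all 6 groups for the differences between days. Benjamini-Hochberg adjusted p at or under 0.05 over all genes tested was a call. Every adjusted p is edgeR's unless DESeq2 or limma-voom is named. Fold changes are log2 ratios, first group over second, with SE equal to their size over the square root of F. CPM uses TMM library sizes, and correlations use log2 CPM with a prior count of 2. The script was tested on simulated data.

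All 9 members are named, with up to 4 called genes per list and comparison and the 6 genes most like the members. A result for 1 gene chosen by this rule is not reported here. The members and lists were chosen with earlier results of these data known. Alternatives were DESeq2 1.42.0, voom with quality weights (limma 3.58.1), no filter on low counts, RLE scaling, a fit of only the compared groups, replicate number as a block, 5 marker-list covariates, sums by the first number of the library name, and each library left out. The neutrophil covariate and the fit without the 4 libraries that stand apart were added after the data were seen.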

Additional observations from a re-analysis of the deposited data

Results flagged for a closer look

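In 45 groups of a gene's log2 CPM (groups of up to 10 libraries), 6 held a highest or lowest library set apart from the next by more than Dixon's critical value, and chance gives about 1 in 20. Ly6c2 was set apart at 4.08 on the log2 scale in type 2 replicate 4 at day 28 (16.9 CPM) and at 2.04 in non-diabetic replicate 6 at day 7 (4.06 CPM). Itgal was set apart at 5.67 in the same type 2 replicate 4 at day 28 (51.0 CPM). Cd14 stood apart at 6.59 in type 1 replicate 7 at day 7 (96.5 CPM), and Ifitm6 at 0.83 in non-diabetic replicate 5 at day 7 (1.73 CPM). Fcgr1 was set apart at the low end, at 4.94 in non-diabetic replicate 2 at day 7 (30.7 CPM).

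The type 1 effect differed between days for 5 genes by the test of the difference itself, with values at day 28 minus day 7 of −1.67 for Ly6c2, −2.16 for Ifitm6, −2.88 for Chil3, −1.42 for Ms4a4c and −0.80 for Fcgr1.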

How the results depend on the processing

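The number of the 9 genes called ranged over fits that each left out 1 library as follows: 8 to 9 for type 1 against non-diabetic tissue at day 7, 5 to 7 for type 2 against non-diabetic at day 7, 0 to 3 for type 1 against type 2 at day 7, 1 to 1 for type 1 at day 28, 4 to 7 for type 2 at day 28, 3 to 5 for type 1 against type 2 at day 28, 5 to 6 for the type 1 difference between days and 0 to 0 for that of type 2. The count for type 1 at day 7 was 3 with the macrophage covariate. For type 2 it was 2 with the macrophage and 0 with the interferon covariate at day 7, and 3 and 0 with the same covariates at day 28. For type 1 against type 2 it was 0 at day 28 with the interferon covariate. At day 7, where 1 was called, it was 3 by DESeq2, 3 by voom, 3 with the macrophage covariate, 2 with only the groups compared, 2 without the 4 libraries, and 0 with no low-count filter, with the lymphocyte or interferon covariate, or with summed libraries. Summed libraries gave 0 for type 1 at day 28 and 3 for the type 1 difference between days, and the macrophage covariate gave 1 for the type 2 difference. Over all comparisons 10 calls were lost with summed libraries and 0 were gained. Calls were thus also lost in comparisons not named here for summed libraries. The cause of these changes was not tested, except that summing leaves fewer samples.

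Of 72 gene values, between 44 (interferon covariate) and 71 (RLE scaling) kept direction and call under a given alternative. Calls that were lost included Ccr2 in type 2 tissue at day 7 by voom (0.42, adjusted p = 0.0551), Cd14 in type 1 tissue at day 7 with only the groups compared (0.54, adjusted p = 0.0518, edgeR), and Itgal and Fcgr1 in type 2 tissue at day 28 with no low-count filter (adjusted p = 0.0539 and 0.0518, edgeR). Called genes changed sign with the interferon covariate, Ccr2 in type 2 tissue at day 7 (−0.29) and Fcgr1 in type 2 tissue at day 28 (−0.46). The other sign changes were of genes not called: for type 1 against non-diabetic at day 28, Fcgr1 and Ms4a4c with the cardiomyocyte (−0.04 and −0.08), macrophage (−0.07 and −0.05) and interferon (−0.19 for both) covariates and without the 4 libraries (−0.01 and −0.02), Fcgr1 with summed libraries (−0.06), Ifitm6 with the interferon covariate (0.05), and Ly6c2, Ccr2 and Itgal with the lymphocyte covariate (0.07, 0.05 and 0.04). For type 1 against type 2 at day 7 they were Cd14 with the cardiomyocyte (−0.09), lymphocyte (−0.03) and neutrophil (−0.03) covariates, Fcgr1 with the lymphocyte covariate (−0.03), Ly6c2 and Ms4a4c with the interferon covariate (0.06 and 0.48), and Ccr2 with summed libraries (−0.05). At day 28 they were Ccr2 with the macrophage (0.04), lymphocyte (0.05) and interferon (0.05) covariates, Cd14 with the macrophage (0.06) and lymphocyte (0.03) covariates and Fcgr1 with the interferon covariate (0.28). For type 2 against non-diabetic they were Chil3 at day 7 with the macrophage covariate (−0.75), and Ccr2 at day 28 with the macrophage (−0.23), lymphocyte (0) and interferon (−0.20) covariates. Plac8 changed sign in the type 1 difference between days with the cardiomyocyte (0.07), macrophage (0.13), lymphocyte (0.05) and neutrophil (0.15) covariates. In the type 2 difference Ifitm6, Chil3 and Itgal changed sign without the 4 libraries (−0.53, −0.40 and −0.48), Chil3 and Itgal by voom (−0.11 and −0.16), and Ifitm6 and Itgal with the cardiomyocyte covariate (−0.18 and −0.14), and Ifitm6 with summed libraries (−0.12). With 1 library left out, signs changed for Cd14 in type 1 against type 2 at day 7 (−0.15 to 0.08), for Ly6c2 (−0.24 to 0.05), Ifitm6 (−0.22 to 0.10), Ms4a4c (−0.02 to 0.22), Ccr2 (−0.10 to 0.07), Itgal (−0.18 to 0.12) and Fcgr1 (−0.01 to 0.13) in type 1 against non-diabetic at day 28, and for Ifitm6 (−0.18 to 0.28), Chil3 (−0.22 to 0.98) and Itgal (−0.41 to 0.37) in the type 2 difference.

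Whether replicate numbers pair the libraries was not tested against libraries with unlike numbers. Of 8 same-numbered pairs at day 7, 5, 4 and 3 had correlated deviations over 0.1 in the 3 pairs of groups, and of 10 pairs at day 28, 0, 4 and 3. With the replicate block the counts were 9, 7 and 1 at day 7, 1, 5 and 3 at day 28, and 6 and 0 for the differences between days, and at day 7 the 1 gene called between the diabetic types was Plac8 in place of Chil3. It turned the sign of Cd14 in type 1 against type 2 at day 7 (0), of Ly6c2 (0), Ccr2 (0.05) and Ifitm6 (0.17) in type 1 against non-diabetic at day 28, and of Itgal (−0.01) and Chil3 (−0.09) in the type 2 difference. Ifitm6 and Chil3 at day 28 had as few as 3 and 8 counts in a library, and the part of depth in their values was not tested.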
